A study of Homo sapiens with 4 samples.

Results

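Gene expression in A549 cells given siRNA against PML was described from the pair of arrays labelled siPML and siCtrl, the 2 of the 4 arrays of the study whose cells received siRNA. A549 is an established human lung adenocarcinoma line. Its cells were transfected with an siRNA against PML (siPML) or a control siRNA (siCtrl), or with an empty expression vector (vector) or a WDR4 expression construct (WDR4), and total RNA was taken at 48 h in all groups. Each group had 1 array, and the sequence of the siRNA, the number of siRNAs used and the reagent are not given in the sources that were used. The vector and WDR4 arrays served as a yardstick for the distance between arrays of the same line. With no replicate, no test was possible. Every difference below is therefore a difference between 2 arrays, and its origin in the siRNA or in the single culture cannot be told apart.

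PML is the protein that builds PML nuclear bodies, spherical structures in the nucleus that gather SP100, DAXX and many SUMO-modified proteins. The gene is itself induced by interferon, and the bodies have been linked to antiviral defence, to the activation of p53, to cell death and to the restraint of growth signalling, including a reported brake on the production of the hypoxia factor HIF-1 alpha through mTOR. The WDR4 protein has been reported to promote the degradation of PML. The comparison of siPML with siCtrl addresses which genes differ when PML is lowered.

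The PML transcript was read by 4 probes, all of them lower on siPML. The brightest probe read 853 on siCtrl and 506 on siPML, with 3840.2 on vector and 5015 on WDR4, a log2 difference of -0.75 from siCtrl to siPML. Deposited values between 10 and 600 could be written as 2 readings each, and for this probe on siPML these were 466 and 547. The siCtrl value of 853 lay above that range. The 3 dimmer probes differed by -0.28, -0.42 and -1.44. On the probe that differed by -0.28, the siPML readings of 103 and 159 overlapped the siCtrl readings of 157 and 161, so that probe did not separate the arrays. The dimmest probe separated them, with siPML readings of 26.5 and 27.4 against 70.0 and 79.7 on siCtrl. The technical standard error of a siPML minus siCtrl difference, from the spread of such pairs of readings, was 0.11 between 300 and 600 intensity units, 0.12 between 100 and 300, 0.20 between 30 and 100 and 0.28 between 10 and 30. Variation between cultures is not in it. What the 2 readings are is not stated, so the technical steps that their spread covers are not known. On the brightest probe the siRNA pair lay closer together than siCtrl and vector, which differed by 2.17. PML was also much higher on both plasmid arrays than on either siRNA array, as were the interferon effectors described below.

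Differences are given as siPML minus siCtrl on the scale of log2(intensity + 1), and a difference of 1 is a 2-fold change. Each gene was represented by its brightest probe on the siRNA pair, and 9128 of 18255 genes reached the median level, an intensity of about 204, and were kept. At least 2-fold higher on siPML were 214 kept genes, which is 2.34% of them, and at least 2-fold lower were 372, which is 4.08%. Differences of 4-fold or more were found for 16 genes higher and 29 lower. The median over all kept genes was 0.02, and 95% of the genes lay between -1.18 and 0.97. Within 1.5-fold of equality were 77.5% of the genes. The split depended on scale and filter. With each array centred on its own median it was 153 higher against 500 lower and the median of all kept genes was -0.10, and with no filter on dim genes it was 736 higher against 570 lower. With the mean of siCtrl and vector as the control it was 176 higher against 513 lower. On the same genes, vector differed from siCtrl at least 2-fold in 705 genes higher and 322 lower, and WDR4 from vector in 35 higher and 26 lower. The siRNA pair therefore lay closer together than siCtrl and vector, and further apart than the pair of plasmid arrays. The depth of arrays is not counted in reads, and their number limits the precision.

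**Figure D1:**
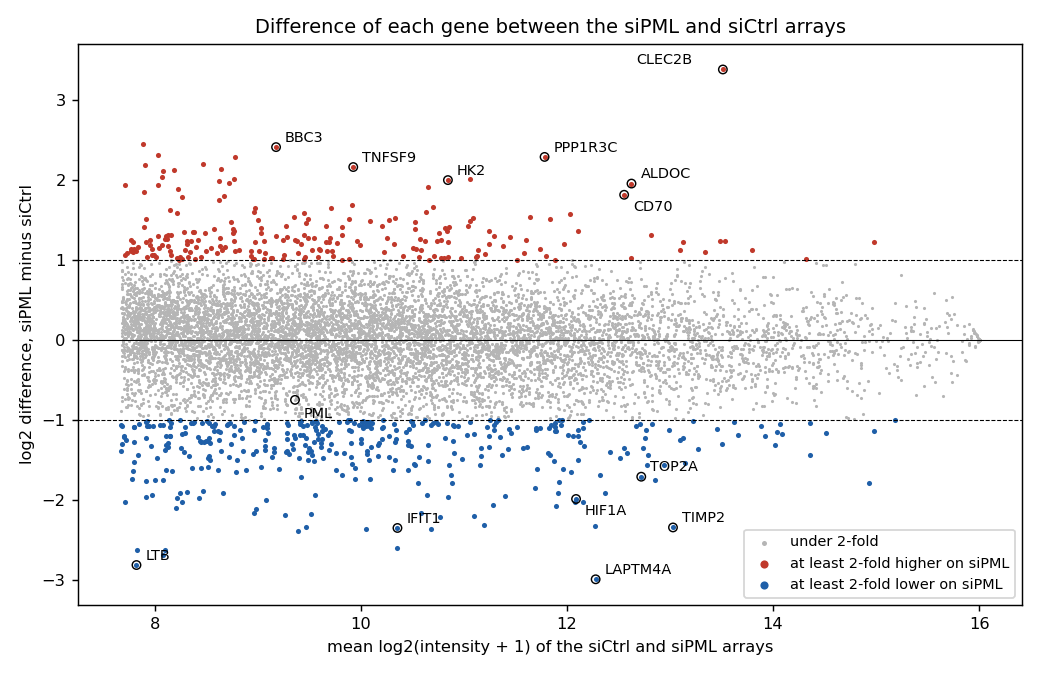
Log2 difference between siPML and siCtrl (vertical axis, siPML minus siCtrl) against the mean log2(intensity + 1) of the 2 arrays (horizontal axis) for 9128 kept genes, 1 point each. Red points are the 214 genes at least 2-fold higher and blue points the 372 at least 2-fold lower, dashed lines mark 2-fold, and open circles mark named genes. CLEC2B at 3.39 and LAPTM4A at -2.997 lie at the 2 ends, and PML at -0.75 lies inside the dashed lines.

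How well these differences repeat within the arrays was read from genes with more than 1 probe. Among 1750 genes with at least 2 probes above the filter, the SD of a single probe's difference was 0.35, and the 2 probes correlated at Pearson r = 0.58 across genes, which are not independent replicates and share both arrays. Of 78 genes at least 2-fold lower with a second probe, 69 were on the same side on that probe and 33 were at least 2-fold lower on all kept probes. Of 24 genes at least 2-fold higher, 21 were on the same side and 8 were at least 2-fold higher on all. The 8 were ALDOC, SPTSSB, MALAT1, MSMO1, INSIG1, IL10RB, ITGAV and COQ8A. The lower genes with the closest agreement of large differences included RDH10, which oxidises retinol, at -2.34 and -2.20, the kinase HIPK2 with 3 probes between -1.96 and -1.91, and the ubiquitin ligase RNF157 at -2.12 and -1.86. Other genes disagreed between probes. CDC42, a small GTPase of the actin cytoskeleton, differed by -2.37 on its brighter probe and by 0.78 on the other, so no direction is given for it.

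**Figure D2:**
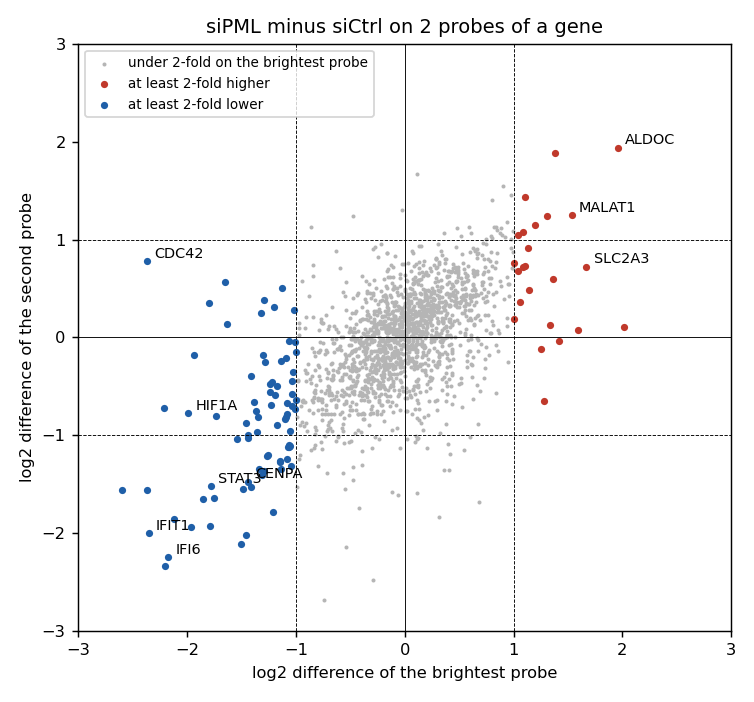
Log2 difference, siPML minus siCtrl, of the brightest probe (horizontal axis) and of the second probe (vertical axis) for 1750 genes with at least 2 kept probes, 1 point each. Dashed lines mark 2-fold, red and blue mark genes at least 2-fold higher and lower on the brightest probe. ALDOC, IFI6, IFIT1, STAT3 and CENPA lie beyond 2-fold on both probes, while CDC42 lies at -2.37 on the first and 0.78 on the second.

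The other 2 arrays show which member of the siRNA pair stood away. Among the 372 lower genes siPML was the lowest of the 4 arrays in 355, or 95.4%, while siCtrl was the highest in 186, or 50%. Among all kept genes siPML was the lowest in 30.2% and siCtrl the highest in 22.7%. In 214 of the 372, or 57.5%, siPML lay at least 2-fold below each of the other 3 arrays, whose own range had a median of 0.42. Of these, 43 had at least 2 kept probes, and in 22 of the 43 all of them were at least 2-fold lower than on siCtrl. The higher genes looked different. Among the 214 higher genes siPML was the highest array in 152 and siCtrl the lowest in 165, against 27.3% and 28.2% of all kept genes, and siPML lay at least 2-fold above all other arrays in 48. These counts are a description, since the rule that made the genes 2-fold different also favours such positions.

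Genes set apart by a low reading on siPML came from many parts of the cell. LAPTM4A, a membrane protein of lysosomes, read 14036 on siCtrl and 1758 on siPML, with 15777 on vector and 16234 on WDR4, a difference of -2.997. The other 3 arrays lay within 0.21 of each other on the log2 scale. TIMP2, an inhibitor of matrix metalloproteinases, read 18853 on siCtrl and 3703 on siPML, with 31799.9 on vector and 35128 on WDR4 (log2 difference -2.35). SLC35B1, a nucleotide transporter of the endoplasmic reticulum, read 11046 on siCtrl and 2204 on siPML, with 12005 on vector and 7709 on WDR4 (log2 difference -2.32). In these 3 genes siPML lay below all other arrays, which differed among themselves by at most 0.90 on the log2 scale. SLC46A3, a lysosomal transporter, read 2409.8 on siCtrl and 465 on siPML, with 2739.7 on vector and 2151 on WDR4 (log2 difference -2.37), and its second probe gave -1.56. Of the dimmer genes, EMC8, a subunit of the endoplasmic reticulum membrane complex, read 566 on siCtrl and 90.2 on siPML, with 528 on vector and 466 on WDR4 (log2 difference -2.64), with siPML readings of 84.9 and 95.5 against 520.1 and 611 on siCtrl. The lipid droplet protein CIDEC read 687 on siCtrl and 105 on siPML, with 1011 on vector and 1285 on WDR4 (log2 difference -2.69). SNAP25, a SNARE of vesicle fusion, read 1596 on siCtrl and 313 on siPML, with 2622 on vector and 1753 on WDR4 (log2 difference -2.35). Some further genes were picked with their values in view, because the other 3 arrays agreed closely. VMA21, an assembly factor of the vacuolar proton pump, read 7805 on siCtrl and 1854 on siPML, with 7087 on vector and 7539 on WDR4 (log2 difference -2.07). The sialomucin CD164 read 9225 on siCtrl and 2262 on siPML, with 10788 on vector and 11265 on WDR4 (log2 difference -2.03). STAT3, the transcription factor of interleukin 6 signalling, read 7184 on siCtrl and 2088 on siPML, with 9081 on vector and 8213 on WDR4, and its 2 probes differed by -1.78 and -1.52. In VMA21, CD164 and STAT3 the other 3 arrays lay within 0.34 of each other, and siPML lay below them.

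Fewer genes were set apart by a high reading on siPML. CLEC2B, a C-type lectin that binds the natural killer cell receptor NKp80, read 3614 on siCtrl and 37793 on siPML, with 6100 on vector and 8123 on WDR4, a difference of 3.39. TNFSF9, which binds the T cell costimulator 4-1BB, read 459 on siCtrl and 2060.4 on siPML, with 636 on vector and 786 on WDR4 (log2 difference 2.16). FGFR2, a receptor of fibroblast growth factors, read 116 on siCtrl and 585 on siPML, with 85.3 on vector and 70.0 on WDR4 (log2 difference 2.32). RPRML, a relative of the p53 target Reprimo, was dim and read 99.7 on siCtrl and 553 on siPML, with 74.2 on vector and 72.5 on WDR4 (log2 difference 2.46). MARCHF4, a membrane ubiquitin ligase, read 129.5 on siCtrl and 564 on siPML, with 222 on vector and 276 on WDR4 (log2 difference 2.12), with readings of 537 and 592 on siPML against 129 and 129.8 on siCtrl. The siPML array stood above the other 3 for each of these 5 genes. The RNA-binding cofactor A1CF, chosen after its values were seen, read 218 on siCtrl and 764 on siPML, with 210.4 on vector and 221 on WDR4, so that the other arrays agreed within 0.07 on the log2 scale. SPTSSB, a small subunit of serine palmitoyltransferase that starts sphingolipid synthesis, read 235 on siCtrl and 614 on siPML, with 168 on vector and 179 on WDR4, and its 2 probes differed by 1.38 and 1.89. Its sister subunit SPTSSA, also chosen after its values were seen, read 23524 on siCtrl and 10185 on siPML, and its 2 probes differed by -1.79 and -1.21. Other large differences arose where siCtrl was the low array. RGCC, a regulator of the cell cycle, read 198 on siCtrl and 970.4 on siPML, with 727 on vector and 641 on WDR4 (log2 difference 2.29), and KLK10, a secreted protease, read 164 on siCtrl and 757 on siPML, with 2062 on vector and 3239 on WDR4 (log2 difference 2.20). For KLK10 siPML also lay below both plasmid arrays, and for RGCC it lay above them.

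**Figure D3:**
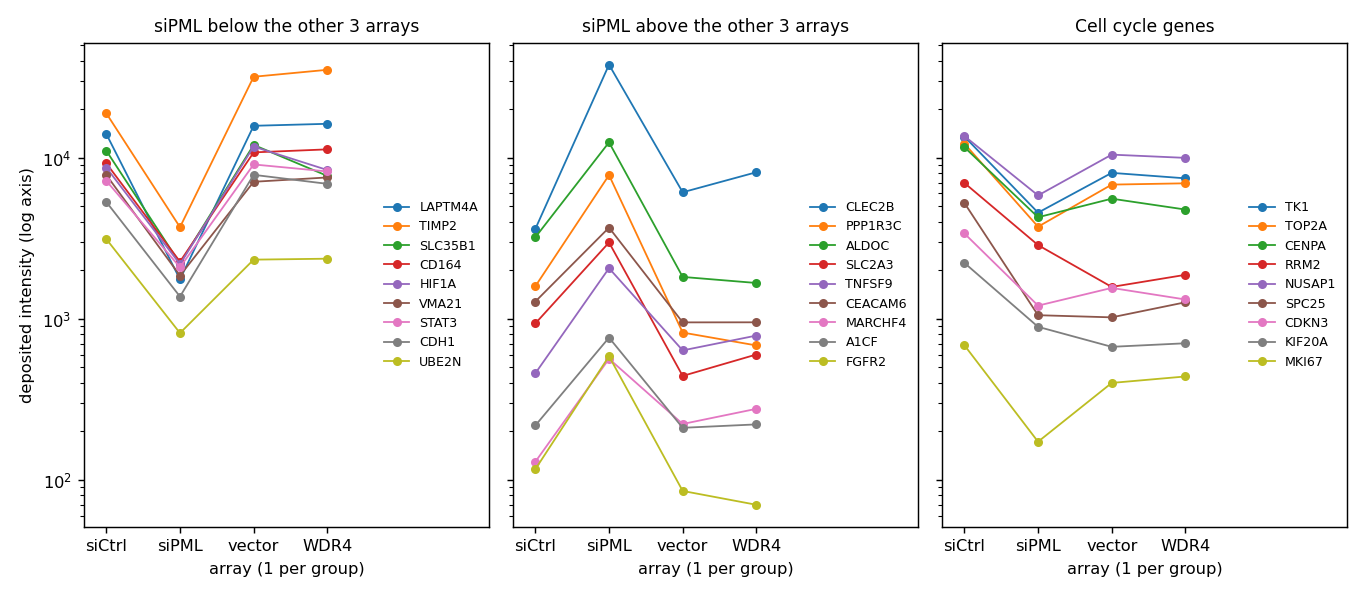
Deposited intensity (vertical log axis) of 27 genes on the 4 arrays (horizontal axis, 1 array per group), with lines joining the values of a gene. In the left panel siPML lies below the other 3 arrays for all 9 genes, and in the middle panel it exceeds them for all 9. In the right panel the highest of the 4 values of all 9 cell cycle genes is on siCtrl. Levels are not comparable between genes.

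Gene groups were described with 176 lists of families, complexes and pathways, 167 of which had at least 5 usable members. A list was said to lean when its median lay at least 0.3 from the median of all genes and at least 75% of its members lay on that side. Most lists did not lean, and 141 medians lay within 0.3 of all genes. Leaning lower on siPML were 10 lists and leaning higher 6. These lists and this rule are a description without a test. In bulk RNA, fewer cells of a kind and less RNA per cell cannot be told apart.

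**Figure D4:**
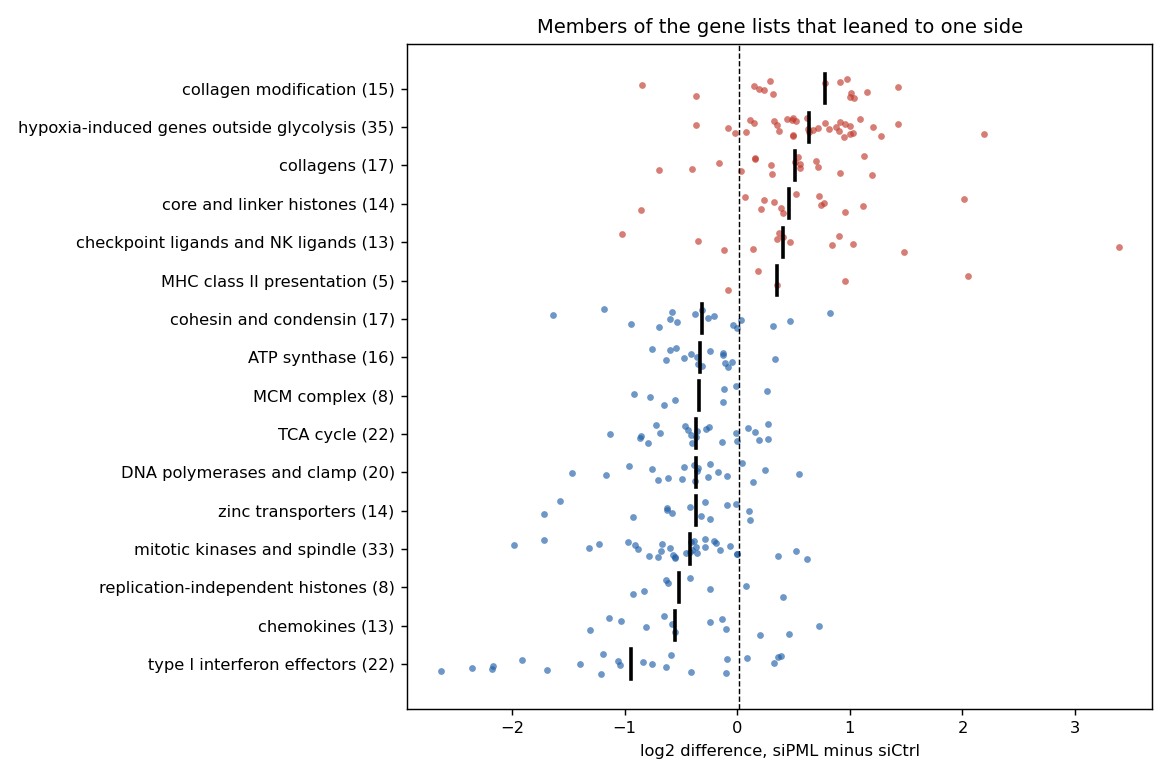
Log2 difference, siPML minus siCtrl (horizontal axis), of the usable members of the 16 leaning lists, 1 point per gene, with the number of members in brackets. Thick bars are list medians, the dashed line is the median of all kept genes at 0.02, blue marks lists leaning lower and red those leaning higher. Interferon effectors reach the lowest values with a median of -0.94, and of the 16 lists collagen modification has the highest median at 0.78.

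Genes known to be induced by low oxygen were higher on siPML. Cells short of oxygen stabilise HIF-1 alpha, which binds the core ACGTG and switches on glucose uptake, glycolysis, pH control, matrix modification and mitophagy. Outside glycolysis, 35 of 36 listed genes were kept, 32 of them above 0 and 3 below, with a median of 0.63. At least 2-fold higher were 7, against 2.34% of all kept genes, and none was 2-fold lower. The siPML array was the highest of 4 for 24 of the 35, against 27.3% of all kept genes. P4HA1, a subunit of the collagen prolyl hydroxylase, read 1282 on siCtrl and 3448 on siPML, with 1344 on vector and 1932 on WDR4 (log2 difference 1.43). ANKRD37, an ankyrin repeat protein, read 254 on siCtrl and 616 on siPML, with 88.0 on vector and 159 on WDR4 (log2 difference 1.28), and the histone demethylase KDM5B read 575 on siCtrl and 1329.8 on siPML, with 1048 on vector and 859 on WDR4 (log2 difference 1.21). BHLHE41, a clock repressor that also answers to oxygen, was the largest of the list at 111 on siCtrl and 512 on siPML (log2 difference 2.19). The mitophagy receptors BNIP3 and BNIP3L, which are HIF targets, read 2676 and 4419 on siCtrl and 5368 and 8999 on siPML, against 1422 and 3750.1 on vector and 1571 and 5209.8 on WDR4, with differences of 1.004 and 1.03. HILPDA, a lipid droplet protein induced by hypoxia, read 29052 on siCtrl and 51261 on siPML, with 8543 on vector and 14638 on WDR4 (log2 difference 0.82), with siPML again the highest array. The list kept its lean under all 8 alternatives that kept siCtrl as the control and could change it, with medians from 0.62 to 0.71.

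The gene of the factor itself differed the other way. HIF1A, which encodes HIF-1 alpha, read 8683 on siCtrl and 2183 on siPML, with 11719.9 on vector and 8385 on WDR4, a difference of -1.99, and its second probe gave -0.78. Both probes were lower on siPML, and siPML was the lowest of the 4 arrays. VHL, the ubiquitin ligase subunit that removes HIF-1 alpha, read 2993 on siCtrl and 2089.8 on siPML, with 3909.8 on vector and 3689 on WDR4 (log2 difference -0.52). EPAS1, which encodes HIF-2 alpha, read 6847 on siCtrl and 8933 on siPML, with 10565 on vector and 10846 on WDR4 (log2 difference 0.38), and CITED2, which limits HIF activity, read 347 on siCtrl and 549 on siPML, with 328 on vector and 443 on WDR4 (log2 difference 0.66). The list of oxygen sensing as a whole had a median of 0.07 over 12 kept genes.

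Promoters are shown here for P4HA1 of the hypoxia list, HK2 of the glycolysis list and PPP1R3C, a glycogen gene outside both lists, because they hold the core ACGTG. The windows are RefSeq promoters of GRCh38.p14 from 250 bases before to 50 after the start of the gene, 5′ to 3′ on the strand of the gene. Capitals mark ACGTG on either strand, and a palindrome CACGTG counts on both. Of 27 hypoxia genes with a window, 17 held it, or 63.0%, and of 26 glycolysis genes 10 held it, or 38.5%, against 21.6% of all 27305 windows and 27.5% of those of 7599 kept genes. Among members past 2-fold with a window, 4 of 6 hypoxia genes and 2 of 4 glycolysis genes held it. The shares over whole lists, here and for the motifs below, do not use the difference between siPML and siCtrl. They describe the lists and not that difference. A match is a description of letters, not a site of binding. HK2 lies on chromosome 2 (chr2:74833877-74834176, plus strand), PPP1R3C on chromosome 10 (chr10:91633022-91633321, minus strand) and P4HA1 on chromosome 10 (chr10:73096817-73097116, minus strand).
HK2: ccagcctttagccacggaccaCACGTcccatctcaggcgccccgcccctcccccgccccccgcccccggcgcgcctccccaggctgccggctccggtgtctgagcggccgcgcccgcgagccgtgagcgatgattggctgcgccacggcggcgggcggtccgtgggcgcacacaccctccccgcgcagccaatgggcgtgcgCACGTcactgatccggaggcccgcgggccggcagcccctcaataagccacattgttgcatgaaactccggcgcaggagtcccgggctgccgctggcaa
PPP1R3C: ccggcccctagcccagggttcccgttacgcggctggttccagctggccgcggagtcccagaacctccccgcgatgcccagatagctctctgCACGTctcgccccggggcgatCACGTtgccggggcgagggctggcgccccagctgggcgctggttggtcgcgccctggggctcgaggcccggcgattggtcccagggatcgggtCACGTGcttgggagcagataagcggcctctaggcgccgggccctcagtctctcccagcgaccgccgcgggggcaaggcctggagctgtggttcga
P4HA1: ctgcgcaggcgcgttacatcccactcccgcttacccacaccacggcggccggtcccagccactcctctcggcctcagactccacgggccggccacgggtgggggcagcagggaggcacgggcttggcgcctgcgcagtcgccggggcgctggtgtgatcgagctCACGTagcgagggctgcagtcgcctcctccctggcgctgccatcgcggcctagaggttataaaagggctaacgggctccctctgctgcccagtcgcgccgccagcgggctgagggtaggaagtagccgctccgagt

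Glycolysis did not move as a block, and the genes at least 2-fold different sat at the entry, at the control of phosphofructokinase and at aldolase. Of 28 kept genes, 3 were at the limit of the scanner on both siRNA arrays, and the other 25 had a median of 0.09. Of the 25, 5 were at least 2-fold higher, against 2.34% of all kept genes, and none was 2-fold lower. At uptake, the glucose transporter SLC2A3 read 936 on siCtrl and 2976 on siPML, with 442 on vector and 600 on WDR4 (log2 difference 1.67), with 0.72 on its second probe, and SLC2A1 read 219 on siCtrl and 356 on siPML (log2 difference 0.70). At the first step HK2, the inducible hexokinase, read 919 on siCtrl and 3681 on siPML, with 1641 on vector and 2376 on WDR4 (log2 difference 2.001), while the constitutive HK1 read 15407 on siCtrl and 14546 on siPML (log2 difference -0.08). Phosphofructokinase differed little on the brightest probes, with PFKM at 0.07, PFKL at 0.09, but -0.31 on its second probe, and PFKP, the platelet form, at 0.40. The enzymes that make and remove its activator fructose 2,6-bisphosphate were higher, PFKFB3 at 14372 on siCtrl and 28978 on siPML, with 5204 on vector and 6820.2 on WDR4 (log2 difference 1.01) and PFKFB4 at 1773 on siCtrl and 4010.2 on siPML, with 687 on vector and 734 on WDR4 (log2 difference 1.18). Of the aldolases ALDOC read 3207 on siCtrl and 12459.7 on siPML, with 1819 on vector and 1668 on WDR4 (log2 difference 1.96), with its second probe at 1.94, and ALDOA differed by 0.02 near the top of the scale. The second probe of ALDOA gave -0.62. Of the enzymes that follow, PGK1, phosphoglycerate kinase, read 1249 on siCtrl and 1944 on siPML, with 527 on vector and 784 on WDR4 (log2 difference 0.64) and TPI1, triose phosphate isomerase, read 8177 on siCtrl and 6823 on siPML (log2 difference -0.26). The pyruvate kinase PKM read 33442 on siCtrl and 30222 on siPML (log2 difference -0.15), and PKLR, the form of liver and red cells, read 166 on siCtrl and 323 on siPML, with 143 on vector and 378 on WDR4 (log2 difference 0.96). ENO1, LDHB and GPI were at the scanner limit on both siRNA arrays, and LDHA and GAPDH reached it on siPML, so their differences are bounded by it. ENO3, the muscle enolase, read 2329.8 on siCtrl and 1225 on siPML (log2 difference -0.93), and ENO2, the neuronal form, read 7119 on siCtrl and 6364 on siPML (log2 difference -0.16). The lactate transporters SLC16A1 and SLC16A3 differed by -0.19 and -0.28. Of the kinases that switch off pyruvate dehydrogenase, PDK1 differed by 0.26, PDK3 by 0.11, PDK2 by -0.56 and PDK4 by -0.92. For 14 of the 25 usable genes siPML was the highest of the 4 arrays, against 27.3% of all kept genes.

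**Figure D5:**
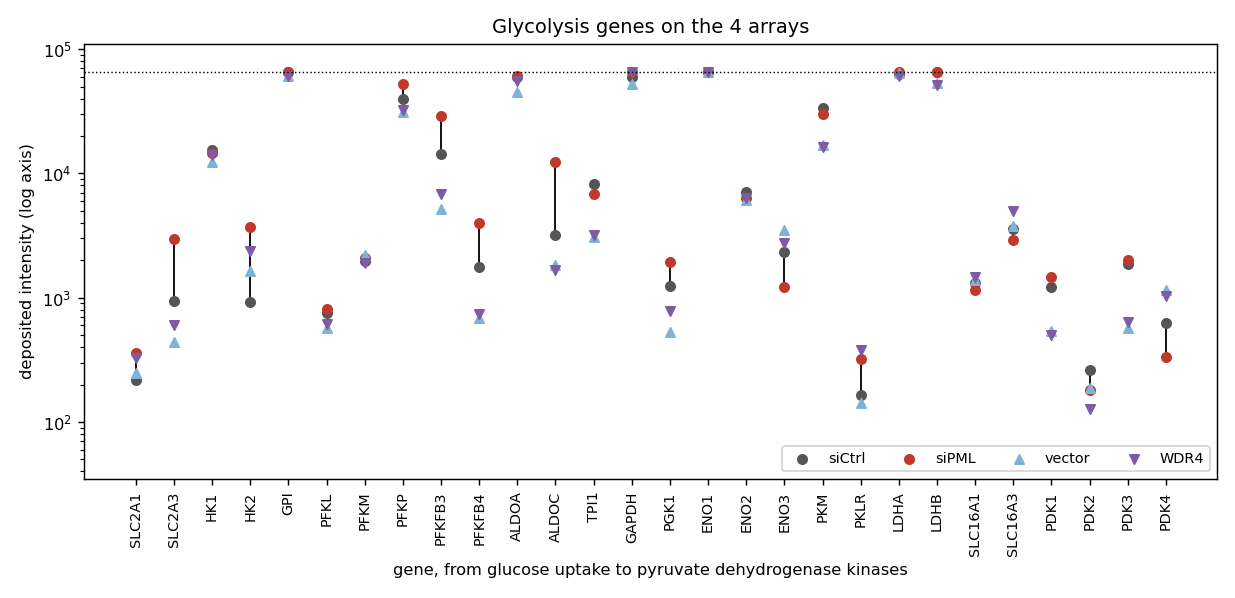
Deposited intensity (vertical log axis) of 28 kept glycolysis genes (horizontal axis, in the order of the pathway) on the 4 arrays, with a black line joining siCtrl and siPML. The dotted line is the scanner limit of 65535. Long lines upward from siCtrl to siPML appear at SLC2A3, HK2, PFKFB4 and ALDOC, and the points of ENO1 sit at the limit on all 4 arrays.

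Most glycogen genes lay above 0. PPP1R3C, which targets protein phosphatase 1 to glycogen and promotes its storage, read 1592 on siCtrl and 7797 on siPML, with 821 on vector and 683 on WDR4 (log2 difference 2.29), at least 2-fold above all other arrays. GBE1, the branching enzyme, read 1823 on siCtrl and 3098 on siPML, with 624 on vector and 927 on WDR4 (log2 difference 0.76), and PYGL, the glycogen phosphorylase of liver, read 1001 on siCtrl and 2211 on siPML, with 1050.1 on vector and 1047 on WDR4 (log2 difference 1.14), with 0.49 on its second probe. PGM1, which joins glycogen to glycolysis, was lower at 13487 on siCtrl and 9149.6 on siPML (log2 difference -0.56). Of 13 kept genes of glycogen and glucose synthesis, 10 lay above 0 and the median was 0.24.

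Collagens and the enzymes that modify them were higher. Of 17 kept collagen genes 14 lay above 0, with a median of 0.51 and a lean that was lost without the filter and with the mean over probes, and of 15 kept modifying enzymes 13 lay above 0, with a median of 0.78 and 4 at least 2-fold higher. COL7A1, the collagen of anchoring fibrils, read 5929.5 on siCtrl and 12972 on siPML, with 11716 on vector and 14146 on WDR4 (log2 difference 1.13), and COL11A1, a fibrillar collagen of cartilage, read 177 on siCtrl and 406 on siPML, with 99.5 on vector and 108 on WDR4 (log2 difference 1.19). P3H2 and P3H1, prolyl 3-hydroxylases, read 975 and 375 on siCtrl and 2172 and 758 on siPML, against 444 and 542 on vector and 564 and 708 on WDR4, with differences of 1.15 and 1.01. COLGALT1, which adds galactose to collagen, read 1283 on siCtrl and 2639 on siPML, with 1204 on vector and 1782 on WDR4 (log2 difference 1.04), and the collagen chaperone SERPINH1 read 6422 on siCtrl and 12599.9 on siPML, with 10110.2 on vector and 7393 on WDR4 (log2 difference 0.97), with 0.91 on its second probe. P4HB, the partner of P4HA1 in the prolyl 4-hydroxylase and a member of the folding list, went the other way at 37986 on siCtrl and 19313 on siPML, with 36100.5 on vector and 32061 on WDR4 (log2 difference -0.98). P4HA1 belongs to both the hypoxia list and this one. Against vector the collagen median was 0.30 and against WDR4 it was 0.01. Without the filter on dim genes the modification list had a median of 0.32 and no longer leaned.

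The effectors of type I interferon had the lowest median of the 167 lists. Interferon alpha and beta signal through receptor-bound kinases and transcription factors to a common set of antiviral genes that carry the interferon-stimulated response element. Of 40 listed genes 22 were kept, 18 below 0 and 4 above, with a median of -0.94. At least 2-fold lower were 11, against 4.08% of all kept genes. Of the 18 under the filter, 16 were lower and 2 higher on siPML. Of these, chosen after their values were seen, IFI44L read 495 on siCtrl and 38.7 on siPML, with 10385 on vector and 10795 on WDR4, and the antiviral GTPase MX1 read 229 on siCtrl and 4.07 on siPML, with 4838 on vector and 4986 on WDR4. IFI27, a small membrane protein, read 681 on siCtrl and 109 on siPML, with 20626 on vector and 28514 on WDR4 (log2 difference -2.63). IFIT1, which binds foreign RNA, read 2962 on siCtrl and 579 on siPML, with 46225 on vector and 53035 on WDR4 (log2 difference -2.35), with -2.001 on its second probe, and IFI6 read 1559 on siCtrl and 345 on siPML, with 17192 on vector and 18070.3 on WDR4 (log2 difference -2.17), with -2.25. IFITM1, which blocks viral entry, read 1061 on siCtrl and 235 on siPML, with 29380.5 on vector and 28323 on WDR4 (log2 difference -2.17). For all 4 the order was siPML, then siCtrl, then both plasmid arrays. The siPML array was the lowest for 18 of the 22, against 30.2% of all kept genes. The kept effectors were lower on siCtrl than on vector as well, with a median of -3.02. The list kept its lean under all 8 alternatives with siCtrl as the control, and its median ranged from -0.99 to -0.43.

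The element is shown in the promoters of genes with agreeing probes. The motif searched was GAAA, any 2 bases and GAAA again, on either strand and in capitals below. It was present in 15 of 19 interferon effectors with a RefSeq window, or 78.9%, against 3.65% of all windows and 2.70% of those of kept genes. Of the effectors past 2-fold with a window, 7 of 8 held it. In IFIT1 (chromosome 10, GRCh38.p14, chr10:89392373-89392672, plus strand) the matches began 116 and 103 bases before the start. In IFI6 (chromosome 1, chr1:27672143-27672442, minus strand) 3 matches began 156, 115 and 93 bases before it.
IFIT1: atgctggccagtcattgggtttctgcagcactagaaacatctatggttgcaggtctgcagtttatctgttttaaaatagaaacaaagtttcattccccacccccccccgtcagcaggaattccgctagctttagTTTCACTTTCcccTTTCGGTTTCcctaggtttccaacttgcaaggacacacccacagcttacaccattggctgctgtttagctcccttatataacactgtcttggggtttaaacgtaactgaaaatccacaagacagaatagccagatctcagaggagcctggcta
IFI6: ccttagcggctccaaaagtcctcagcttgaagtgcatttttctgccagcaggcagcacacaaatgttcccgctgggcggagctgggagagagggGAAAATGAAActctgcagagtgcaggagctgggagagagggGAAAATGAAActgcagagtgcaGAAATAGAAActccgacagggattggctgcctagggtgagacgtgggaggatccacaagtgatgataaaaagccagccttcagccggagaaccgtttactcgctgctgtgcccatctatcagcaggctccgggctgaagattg

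The signalling chain above these effectors did not lean. Of 14 kept genes of receptors, kinases and transcription factors, 7 lay above and 7 below 0, with a median of -0.07. The kinases JAK2 and TYK2 read 404 and 308 on siCtrl and 225 and 175 on siPML, against 519 and 287 on vector and 489 and 339 on WDR4, with differences of -0.84 and -0.81. IL10RB, a receptor chain shared by interleukin 10 and interferon lambda, was higher on both probes, at 1.11 and 1.43, and read 574 on siCtrl and 1239 on siPML, with 1172 on vector and 1331 on WDR4. IRF5 differed by 0.46. Sensors of foreign nucleic acid had a median of 0.23 with 11 of 13 above 0 and of -0.36 against vector. Among them was TLR3, the endosomal sensor of double-stranded RNA, at 181 on siCtrl and 450.1 on siPML, with 1153 on vector and 1815 on WDR4 (log2 difference 1.31). IRAK1, a kinase below Toll-like receptors, read 17970.4 on siCtrl and 8789.7 on siPML, with 17467 on vector and 16605 on WDR4 (log2 difference -1.03). Genes of antigen presentation on MHC class I, many of them interferon-induced, had a median of 0.21. Against vector their median was -1.09 and against WDR4 it was -1.54. The peptide pump TAP2 read 550.3 on siCtrl and 1468 on siPML, with 742 on vector and 689 on WDR4 (log2 difference 1.41), and the proteasome activator PSME1 differed by -0.66, with -0.39 on its second probe. In the small MHC class II list, HLA-DMB and HLA-DMA, which load peptide, read 132 and 524 on siCtrl and 547 and 1019 on siPML, against 33.9 and 285 on vector and 51.0 and 308 on WDR4, with differences of 2.05 and 0.96. That list had 5 kept members, and its lean was lost under 6 of 8 alternatives with siCtrl as the control.

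Chemokines leaned lower, with a median of -0.56 over 13 kept genes. At least 2-fold lower were 3, against 4.08% of all kept genes. CCL2, which attracts monocytes, read 18322 on siCtrl and 7397 on siPML, with 21443 on vector and 25083 on WDR4, and its 2 probes differed by -1.41 and -1.31. CXCL5, which attracts neutrophils, read 47801 on siCtrl and 21732 on siPML, with 55887 on vector and 55913 on WDR4, with probes at -1.34 and -1.14. CXCL2 read 3642 on siCtrl and 1779 on siPML, with 13346 on vector and 8427 on WDR4 (log2 difference -1.03) and CCL26, an eotaxin, read 3022 on siCtrl and 1727 on siPML, with 6204 on vector and 5089 on WDR4 (log2 difference -0.81). The siPML array was the lowest of 4 for 10 of the 13, against 30.2% of all kept genes. Without the filter on dim genes the chemokine median was 0.02, since 16 of the 24 dim chemokines read higher on siPML. Other secreted signals were divided. LTB, lymphotoxin beta, read 601 on siCtrl and 84.3 on siPML, with 1859 on vector and 981 on WDR4 (log2 difference -2.82), IL11 read 472 on siCtrl and 139 on siPML, with 1774 on vector and 1474 on WDR4 (log2 difference -1.75) and IL15 read 907 on siCtrl and 434 on siPML, with 1204 on vector and 1001 on WDR4 (log2 difference -1.06). The co-stimulatory ligands CD70 and TNFSF9 were higher, and CD70 read 3205 on siCtrl and 11296 on siPML, with 5825 on vector and 4563 on WDR4 (log2 difference 1.82). The interleukin receptor IL1R1 read 6696 on siCtrl and 2905 on siPML, with 3556 on vector and 3759 on WDR4 (log2 difference -1.20). In the NF-kB pathway, of 20 kept genes 11 lay above 0, with the noncanonical subunit NFKB2 at 225 on siCtrl and 569 on siPML, with 869 on vector and 635 on WDR4 (log2 difference 1.34) and its activating kinase MAP3K14 at 1526 on siCtrl and 3319 on siPML, with 1532 on vector and 1227 on WDR4 (log2 difference 1.12).

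Ligands that immune cells read on a tumour cell leaned higher, with 10 of 13 above 0 and a median of 0.40. CLEC2B led the list. CD276, the checkpoint protein B7-H3, read 881 on siCtrl and 2462 on siPML, with 1542 on vector and 2351 on WDR4 (log2 difference 1.48), and MICB, a stress ligand of NKG2D, read 1405 on siCtrl and 2868 on siPML, with 2610.4 on vector and 2174 on WDR4 (log2 difference 1.03). ULBP2, another NKG2D ligand, was lower at 343 on siCtrl and 169 on siPML, with 772 on vector and 1058 on WDR4 (log2 difference -1.02). The lean was lost without the filter and with the filter taken over all 4 arrays. The genes followed up in the study itself were higher on siPML. They may have been chosen on this comparison, so they are not taken as independent evidence of it. NT5E, which encodes the adenosine-producing surface enzyme CD73, read 909.5 on siCtrl and 2773 on siPML, with 1828 on vector and 3285 on WDR4 (log2 difference 1.61). PLAUR, the urokinase receptor uPAR, read 2763 on siCtrl and 5209 on siPML, with 3527 on vector and 6000.4 on WDR4 (log2 difference 0.91), with 0.40 on its second probe. SAA2 read 378 on siCtrl and 1016 on siPML, with 1809 on vector and 3002 on WDR4 (log2 difference 1.42), and siCtrl was the lowest array for all 3. Of 9 kept genes of adenosine production and sensing 8 lay above 0, including the receptor ADORA2B at 355 on siCtrl and 622 on siPML, with 294 on vector and 357 on WDR4 (log2 difference 0.81). Acute phase genes otherwise varied, with the fibrinogen chain FGG at 4432 on siCtrl and 1723 on siPML, with 483 on vector and 495 on WDR4 (log2 difference -1.36) and SERPINA3 at 1144 on siCtrl and 542 on siPML, with 1848 on vector and 1293 on WDR4 (log2 difference -1.08).

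Genes of the mitotic spindle, the MCM helicase and the DNA polymerases were mostly lower on siPML than on siCtrl, by small amounts, while the medians of these lists lay above 0 against vector. Origin licensing and GINS genes did not lean, with 8 above and 10 below 0 and a median of -0.06. Before they divide, cells load the MCM helicase onto origins, copy DNA with the polymerases, and then build spindle and kinetochores from genes switched on by E2F and by the MuvB and FOXM1 complexes. Among mitotic kinases and spindle genes 29 of 33 lay below 0, with a median of -0.42. At least 2-fold lower were 4, against 4.08% of all kept genes. MKI67, the proliferation antigen Ki-67, read 685 on siCtrl and 172 on siPML, with 399.7 on vector and 438 on WDR4 (log2 difference -1.98). TOP2A, the topoisomerase that untangles chromosomes, read 12220.5 on siCtrl and 3729 on siPML, with 6807 on vector and 6934 on WDR4 (log2 difference -1.71). KIF20A, a kinesin of cytokinesis, read 2223 on siCtrl and 891 on siPML, with 669.7 on vector and 705 on WDR4 (log2 difference -1.32), and NUSAP1, which bundles spindle microtubules, read 13626 on siCtrl and 5831 on siPML, with 10448 on vector and 9975 on WDR4 (log2 difference -1.22). For all 4 genes siCtrl was the highest array, as it was for 28 of the 33, against 22.7% of all kept genes. For MKI67, TOP2A and NUSAP1 siPML was also the lowest array, as it was for 7 of the 33, against 30.2% of all kept genes. At the kinetochore 20 of 27 genes lay below 0, and the list median, -0.27, was 0.15 against vector. SPC25 of the NDC80 complex read 5237 on siCtrl and 1052 on siPML, with 1021 on vector and 1266 on WDR4 (log2 difference -2.31) and CENPA, the histone that marks centromeres, read 11621 on siCtrl and 4269 on siPML, with 5566 on vector and 4766 on WDR4, with probes at -1.48 and -1.44. CENPN, which reads that histone, differed by -1.46 and -0.87 on its 2 probes. The spindle checkpoint and the anaphase complex were divided, 8 above and 8 below 0. Cohesin and condensin had a median of -0.31, against -0.023 with vector as the control, and the lean was lost under 4 of 8 alternatives that kept siCtrl, with the cohesin subunit SMC1A at 484 on siCtrl and 156 on siPML, with 181 on vector and 187 on WDR4 (log2 difference -1.63) and SMC3, its partner, at 1048 on siCtrl and 1851 on siPML, with 1708 on vector and 1614 on WDR4 (log2 difference 0.82).

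Of the MCM helicase, MCM6 lay under the filter, with a difference of -0.90, and the other members were kept. MCM5 read 1194 on siCtrl and 633 on siPML, with 370.4 on vector and 368 on WDR4 (log2 difference -0.92), MCM4 read 3449 on siCtrl and 2017 on siPML, with 1422 on vector and 1377 on WDR4 (log2 difference -0.77) and MCM3 read 469 on siCtrl and 320.4 on siPML, with 238 on vector and 334 on WDR4 (log2 difference -0.55). MCM2 differed by -0.13, and MCM7 was higher, at 4332 on siCtrl and 5200 on siPML (log2 difference 0.26). The initiation factor MCM10 differed by -0.65, and the meiotic and repair paralogues MCM8 and MCM9 by -0.12 and -0.01. The list median was -0.34, and siCtrl was the highest of 4 in 7 of 8, against 22.7% of all kept genes. DNA polymerases and their clamp lay below 0 in 16 of 20 genes, with a median of -0.37. POLE2 of the leading strand polymerase read 702 on siCtrl and 254 on siPML, with 313 on vector and 374 on WDR4 (log2 difference -1.46), and the clamp loader RFC5 read 1093 on siCtrl and 562 on siPML, with 688 on vector and 557 on WDR4 (log2 difference -0.96). Among genes of nucleotide supply, thymidine kinase TK1 read 13529.5 on siCtrl and 4558 on siPML, with 8051 on vector and 7445 on WDR4 (log2 difference -1.57), the ribonucleotide reductase subunit RRM2 read 6971 on siCtrl and 2867 on siPML, with 1576 on vector and 1874 on WDR4 (log2 difference -1.28) and the dUTPase DUT read 2752 on siCtrl and 1177 on siPML, with 770.4 on vector and 699 on WDR4 (log2 difference -1.22). RRM2 had a second probe at -0.25. NME1, a nucleoside diphosphate kinase, was higher at 1260.1 on siCtrl and 2505 on siPML (log2 difference 0.99).

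With vector as the control the median of many lists changed sign. Of the 167 lists with at least 5 usable genes, 86 had a median on the other side of 0 against vector. Most of these were lists near 0, since 76 of the 86 had a median within 0.3 of 0 against siCtrl. Against vector, siPML read at least 2-fold higher in 4.18% of kept genes and at least 2-fold lower in 10.9%. The medians of mitotic kinases and spindle, MCM, DNA polymerases and ATP synthase were 0.35, 0.47, 0.21 and 0.21, all above 0. By these medians siPML lay between siCtrl and vector. The interferon, chemokine, hypoxia, collagen and zinc transporter lists kept their direction against vector.

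The promoters of mitotic genes often hold the cell cycle homology region, here TTTGAA or TTCGAA on either strand. It was present in 22 of 28 windows of mitotic kinase and spindle genes, or 78.6%, and in 14 of 23 kinetochore windows, or 60.9%. The share was 16.6% of all windows and 11.2% of those of kept genes. Of members past 2-fold with a window, 3 of 4 held it in each of these 2 lists. TOP2A is shown (chromosome 17, GRCh38.p14, chr17:40417847-40418146, minus strand), with the motif in capitals at 194 and 151 bases before the start.
TOP2A: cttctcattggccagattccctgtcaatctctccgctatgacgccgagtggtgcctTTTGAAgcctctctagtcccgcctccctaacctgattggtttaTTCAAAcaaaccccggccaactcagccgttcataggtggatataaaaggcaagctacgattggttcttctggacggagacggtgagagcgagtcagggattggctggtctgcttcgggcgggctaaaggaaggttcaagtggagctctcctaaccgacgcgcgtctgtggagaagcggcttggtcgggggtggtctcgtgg
The E2F motif TTTNNCGC was present in 4 of 6 MCM windows, 7 of 17 of origin licensing and 9 of 18 of DNA polymerases, against 6.90% of all windows and 11% of those of kept genes.

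The regulators of the cycle were less uniform. Cyclins had a median of -0.34, with CCNA2 of S phase at 1819 on siCtrl and 922 on siPML, with 734 on vector and 742 on WDR4 (log2 difference -0.98) and CCND3 of G1 at 12606 on siCtrl and 6328 on siPML, with 5496 on vector and 4969.7 on WDR4 (log2 difference -0.99). CDKN3, a phosphatase of CDK2, read 3386 on siCtrl and 1207 on siPML, with 1554 on vector and 1317 on WDR4 (log2 difference -1.49), the phosphatase CDC25B read 10937 on siCtrl and 4288 on siPML, with 13484 on vector and 12445 on WDR4 (log2 difference -1.35), and CDK1, the mitotic kinase, read 5424 on siCtrl and 2959 on siPML, with 2467 on vector and 3078 on WDR4 (log2 difference -0.87). For CDC25B and CDKN3 siPML was the lowest array, and CDK1 and CDKN3 were highest on siCtrl. Of the E2F and RB family, MYBL2, which joins the MuvB complex, read 325 on siCtrl and 136 on siPML, with 155 on vector and 201 on WDR4 (log2 difference -1.25) and TFDP1, the partner of E2F, read 5347 on siCtrl and 2479 on siPML, with 3591 on vector and 3595 on WDR4 (log2 difference -1.11). Replication-dependent histone genes, whose transcripts normally lack poly(A), leaned higher with 13 of 14 usable genes above 0 and a median of 0.46, but against vector the median was -0.45. The lean was lost without the filter and for genes above the upper quartile. These genes are near-identical, so their probes may share signal. H2BC18 read 216 on siCtrl and 873 on siPML, with 1253 on vector and 1560.2 on WDR4 (log2 difference 2.01) but its second probe gave 0.11, and H1-2 read 552 on siCtrl and 1075 on siPML, with 924 on vector and 1149.8 on WDR4 (log2 difference 0.96). The replication-independent histones leaned lower, at a median of -0.52, with H2AX at 20589 on siCtrl and 11598 on siPML, with 8734 on vector and 8709.6 on WDR4 (log2 difference -0.83) and H2AJ at 2433 on siCtrl and 1281 on siPML, with 2674 on vector and 2513 on WDR4 (log2 difference -0.93). The second probe of H2AX gave -0.19. Repair lists did not lean, with medians from -0.28 to -0.07. OGG1, which removes oxidised guanine, read 469.7 on siCtrl and 209 on siPML, with 407 on vector and 341 on WDR4 (log2 difference -1.16), and TP53BP1, which marks double-strand breaks, read 2429 on siCtrl and 4600.5 on siPML, with 2779 on vector and 2014 on WDR4 (log2 difference 0.92).

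A549 retains wild-type p53, and 22 of 30 kept p53 targets lay above 0, with a median of 0.33, short of the 75% a lean requires. Against vector the median was -0.30. BBC3, the death effector PUMA, read 250 on siCtrl and 1337 on siPML, with 1927 on vector and 1348 on WDR4 (log2 difference 2.41). BTG2, which slows proliferation, read 282 on siCtrl and 892 on siPML, with 517 on vector and 493 on WDR4 (log2 difference 1.66), and SESN1, a stress brake on mTOR, read 554 on siCtrl and 1197 on siPML, with 503 on vector and 421 on WDR4 (log2 difference 1.11). For BTG2 and SESN1 siPML was the highest array. For BBC3 siCtrl was the lowest and siPML lay below both plasmid arrays. CCNG1, a target that feeds back on MDM2, was lower at 8249 on siCtrl and 4434 on siPML (log2 difference -0.90), with -0.36 on its second probe. In the BCL2 family 12 of 18 lay above 0, though the median was -0.60 against vector, with BIK, a BH3-only protein, at 1040.2 on siCtrl and 2268 on siPML, with 5762 on vector and 5534 on WDR4 (log2 difference 1.12) and BID, which links caspase 8 to mitochondria, at 555 on siCtrl and 262 on siPML, with 615 on vector and 523 on WDR4 (log2 difference -1.08). CASP9, the initiator caspase of the mitochondrial route, read 2376 on siCtrl and 1140.1 on siPML, with 3839 on vector and 2610 on WDR4 (log2 difference -1.06), and XIAP, its inhibitor, read 5267 on siCtrl and 2734 on siPML, with 8109 on vector and 7055 on WDR4, with probes at -0.95 and -0.65. Of 20 kept genes for proteins of PML nuclear bodies, 9 lay above and 11 below 0, with a median of -0.08. HIPK2, a kinase that phosphorylates p53 in the bodies, was the exception in size at 3632 on siCtrl and 929.8 on siPML, with 2329 on vector and 3549 on WDR4 (log2 difference -1.96) over 3 agreeing probes. SUMO2 read 41886 on siCtrl and 26492 on siPML, with 37058 on vector and 47026 on WDR4 (log2 difference -0.66), and SP110, a relative of SP100, read 299 on siCtrl and 199 on siPML, with 3401 on vector and 3752 on WDR4 (log2 difference -0.58).

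Genes of mitochondrial energy were mostly slightly lower on siPML than on siCtrl, while the medians of the TCA cycle and ATP synthase lists lay above 0 against vector. Of 22 genes of the TCA cycle 17 lay below 0, with a median of -0.36, and of 16 kept ATP synthase genes 15 lay below 0, with a median of -0.33. MDH2, malate dehydrogenase, read 12009.9 on siCtrl and 5489 on siPML, with 8464 on vector and 10337 on WDR4 (log2 difference -1.13) and IDH3A, isocitrate dehydrogenase, read 2260 on siCtrl and 1242 on siPML, with 1865 on vector and 1834 on WDR4 (log2 difference -0.86). ATP5PF of the ATP synthase stalk read 21089 on siCtrl and 12464 on siPML, with 14545 on vector and 17196 on WDR4, with probes at -0.76 and -0.63. Complex I had a median of -0.18 with 24 of 35 below 0. Its subunit NDUFS8 read 25065 on siCtrl and 11319.6 on siPML, with 16390.1 on vector and 14783 on WDR4, with probes at -1.28 and -1.15, while COX5A of complex IV was higher at 1551 on siCtrl and 3188 on siPML, with 3813 on vector and 3856 on WDR4 (log2 difference 1.04). Mitochondrial ribosomal proteins had a median of -0.18, with 50 of 72 below 0. Cytosolic ribosomal proteins had a median of 0.29, with 45 of 56 usable genes above 0. RPS3A read 1273 on siCtrl and 3583 on siPML, with 692 on vector and 1118 on WDR4 (log2 difference 1.49). For 12 of the 68 kept cytosolic ribosomal genes both siRNA arrays were at the scanner limit. The lean of the TCA cycle list was lost under 4 of 8 alternatives with siCtrl as the control and that of ATP synthase under none.

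Cholesterol synthesis divided along the pathway. At its start HMGCS1, which makes HMG-CoA, read 1025 on siCtrl and 2419 on siPML, with 2235 on vector and 1557 on WDR4 (log2 difference 1.24), while the phosphomevalonate kinase PMVK and the decarboxylase MVD differed by -0.68 and -0.07. ACAT2, which makes acetoacetyl-CoA, differed by 0.37. IDI1 and FDPS, which build farnesyl diphosphate, differed by 0.40 and -0.19, with 0.63 and 0.13 on their second probes. At the branch to sterols FDFT1, squalene synthase, read 16504 on siCtrl and 31758 on siPML, with 16642 on vector and 12506 on WDR4 (log2 difference 0.94) and SQLE, squalene epoxidase, read 4790.1 on siCtrl and 9384 on siPML, with 4459 on vector and 3527 on WDR4 (log2 difference 0.97). LSS, which closes the ring, differed by 0.07. The demethylases CYP51A1 and MSMO1 read 952 and 4569.9 on siCtrl and 1761 and 11320.3 on siPML, against 1188 and 6631 on vector and 915 and 5337 on WDR4, with differences of 0.89 and 1.31, and MSMO1 had a second probe at 1.24. Of the late enzymes DHCR7 read 4001 on siCtrl and 6716 on siPML, with 3412 on vector and 2089 on WDR4 (log2 difference 0.75), while EBP, NSDHL and SC5D differed by -0.01, 0.10 and -0.34. The second probe of SC5D gave 0.06. HSD17B7 and TM7SF2, sterol reductases, differed by 0.61 and 0.24. INSIG1, the sterol-regulated brake on SREBP, read 2647 on siCtrl and 6062 on siPML, with 3696 on vector and 3509 on WDR4, with probes at 1.15 and 1.19. The siPML array was the highest for HMGCS1, FDFT1, SQLE, CYP51A1, MSMO1, DHCR7 and INSIG1. Of 17 kept enzymes 12 lay above 0 with a median of 0.37, and the SREBP letters CACNCCA were in 5 of 14 windows, or 35.7%, against 17.4% of all and 15.5% of those of kept genes. In fatty acid synthesis ACACA, which makes malonyl-CoA, read 2298 on siCtrl and 5079 on siPML, with 2099.9 on vector and 1566 on WDR4 (log2 difference 1.14) and the elongase ELOVL2 read 492 on siCtrl and 1328 on siPML, with 432 on vector and 548 on WDR4 (log2 difference 1.43), in a list with a median of -0.05.

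Defence against oxidants did not lean, with medians of -0.11 for NRF2 targets and -0.13 for glutathione and peroxide enzymes. SLC7A11, which imports cystine, read 7273 on siCtrl and 2889 on siPML, with 9732 on vector and 7597 on WDR4 (log2 difference -1.33), and the peroxidases GPX1 and GPX4 read 39786 and 20944 on siCtrl and 20005 and 13034 on siPML, against 39945 and 20152 on vector and 34196 and 19097 on WDR4, with differences of -0.99 and -0.68. HMOX1, heme oxygenase, read 7738 on siCtrl and 12893 on siPML, with 8221 on vector and 6985 on WDR4 (log2 difference 0.74). The stress response through ATF4 was divided, 16 above and 11 below 0. Of the enzymes that handle retinoic acid CYP26A1, which degrades it, read 142 on siCtrl and 408 on siPML, with 127 on vector and 157 on WDR4 (log2 difference 1.52), beside the lower RDH10 described above. CYP3A5, which oxidises drugs and steroids, read 164 on siCtrl and 572 on siPML, with 499 on vector and 653 on WDR4 (log2 difference 1.80).

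Transporters varied one by one. Zinc transporters leaned lower, 12 of 14 below 0 with a median of -0.37, among them the importers SLC39A10 and SLC39A9 at 1241 and 2545 on siCtrl and 378 and 856 on siPML, against 764 and 1845 on vector and 755 and 2366 on WDR4, with differences of -1.71 and -1.57. Of the dim zinc transporters 9 of 10 read higher on siPML, and the lean was lost without the filter. SLC7A7, an exchanger of basic amino acids, read 1541 on siCtrl and 292 on siPML, with 872 on vector and 709.8 on WDR4 (log2 difference -2.40). The monocarboxylate transporter relatives SLC16A5 and SLC16A6 read 3941 and 869 on siCtrl and 1326 and 333 on siPML, against 7269.9 and 2024 on vector and 5699.8 and 2676 on WDR4, with differences of -1.57 and -1.38. Among ABC proteins ABCF2, which has no membrane domain, read 1316 on siCtrl and 288 on siPML, with 782 on vector and 861 on WDR4 (log2 difference -2.19), and ABCA12, a lipid transporter of skin, read 106 on siCtrl and 411 on siPML, with 74.5 on vector and 95.5 on WDR4 (log2 difference 1.94). The calcium pumps ATP2B1 of the plasma membrane and ATP2A2 of the endoplasmic reticulum read 492 and 3169.5 on siCtrl and 127 and 1385 on siPML, against 412 and 2614 on vector and 481 and 2683 on WDR4, with differences of -1.95 and -1.19. The second probe of ATP2A2 gave -0.59.

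Adhesion genes differed in single members. CDH1, which encodes E-cadherin of epithelial junctions, read 5311 on siCtrl and 1374 on siPML, with 7828 on vector and 6882 on WDR4 (log2 difference -1.95), with siPML below all other arrays. EPCAM, another epithelial surface protein, read 1325 on siCtrl and 861 on siPML, with 1079 on vector and 993 on WDR4 (log2 difference -0.62), while the keratins KRT7 and KRT19 read 9855 and 7487 on siCtrl and 10719.8 and 10329 on siPML, against 16456 and 14291 on vector and 12201 and 14534 on WDR4. Of the EMT markers kept, 8 of 11 usable lay above 0, with TWIST1, a mesenchymal transcription factor, at 148 on siCtrl and 321 on siPML, with 326 on vector and 311 on WDR4 (log2 difference 1.11). CLDN2, a pore-forming claudin, read 622 on siCtrl and 152 on siPML, with 198 on vector and 183 on WDR4 (log2 difference -2.03), and CLDN1 read 682 on siCtrl and 1153 on siPML, with 1710.5 on vector and 2039 on WDR4 (log2 difference 0.76). The integrin chains ITGAV and ITGA5, which bind vitronectin and fibronectin, read 2109 and 209 on siCtrl and 4478 and 482 on siPML, against 1593 and 674 on vector and 2771 and 743 on WDR4, with differences of 1.09 and 1.20. CEACAM6, a surface protein of epithelial tumours, read 1279 on siCtrl and 3682 on siPML, with 949.8 on vector and 951 on WDR4 (log2 difference 1.52). At the link to actin VCL, vinculin, read 22017 on siCtrl and 10396 on siPML, with 25338 on vector and 25063 on WDR4, with probes at -1.25 and -1.08, and GSN, the severing protein gelsolin, read 1140.2 on siCtrl and 2929 on siPML, with 1548 on vector and 1668 on WDR4 (log2 difference 1.36). The second probe of GSN gave 0.60. TPM1 read 26241 on siCtrl and 10505 on siPML, a difference of -1.32, but 0.25 on its second probe. Of coagulation genes F3, tissue factor, read 426 on siCtrl and 1177 on siPML, with 625 on vector and 846 on WDR4 (log2 difference 1.46). The secreted protease MMP7, matrilysin, read 7568 on siCtrl and 14282 on siPML, with 7110.5 on vector and 7943 on WDR4 (log2 difference 0.92). None of the lists of cadherins, claudins, integrins, keratins, actins or EMT markers leaned.

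In signalling, receptors and ligands of the EGF family differed in single genes. EGFR read 536 on siCtrl and 1296 on siPML, with 941 on vector and 964 on WDR4 (log2 difference 1.27), its feedback inhibitor ERRFI1 read 1088 on siCtrl and 2761 on siPML, with 1302 on vector and 1417 on WDR4 (log2 difference 1.34) and the ligand EREG read 176 on siCtrl and 391 on siPML, with 1071 on vector and 1889 on WDR4 (log2 difference 1.15). The siPML array was the highest for EGFR and ERRFI1, and siCtrl was the lowest for EREG. MAP2K1, the kinase MEK1, read 7449 on siCtrl and 2623 on siPML, with 8562 on vector and 9150.3 on WDR4 (log2 difference -1.51) and MAPK3, the kinase ERK1, read 430 on siCtrl and 187 on siPML, with 486 on vector and 463 on WDR4 (log2 difference -1.20). The growth kinase MTOR read 983 on siCtrl and 432 on siPML, with 849 on vector and 760 on WDR4 (log2 difference -1.18) and its partner MLST8 read 8070.3 on siCtrl and 4538 on siPML, with 5602 on vector and 4328 on WDR4, with probes at -0.83 and -0.62. Among receptors of the TGF-beta family TGFBR2 read 10600 on siCtrl and 4529 on siPML, with 10547 on vector and 11841 on WDR4, with probes at -1.23 and -0.69, and BMPR2 read 423 on siCtrl and 103 on siPML, with 551 on vector and 648 on WDR4 (log2 difference -2.02). ID2, a target of BMP signals, read 7059 on siCtrl and 15176 on siPML, with 15308 on vector and 17067 on WDR4 (log2 difference 1.10) and all 3 of its probes lay between 0.73 and 1.11. CXCR4, the receptor of CXCL12, read 432 on siCtrl and 1022 on siPML, with 509 on vector and 675 on WDR4 (log2 difference 1.24), and the G protein subunit GNA12 read 497 on siCtrl and 146 on siPML, with 425 on vector and 486 on WDR4 (log2 difference -1.76). RAC1, a small GTPase of membrane ruffling, read 5829 on siCtrl and 13682 on siPML, with 6365 on vector and 9455 on WDR4 (log2 difference 1.23). Immediate early genes had a median of 0.30 with 16 of 19 above 0, but against vector the median was -0.64. EGR1 read 353 on siCtrl and 671 on siPML, with 3797 on vector and 883 on WDR4 (log2 difference 0.93). Among transcription factors SOX9 and ETS1 read 558 and 383 on siCtrl and 1597 and 1115 on siPML, against 925 and 1013 on vector and 1089 and 1151 on WDR4, with differences of 1.52 and 1.54. PPARGC1A, the coactivator of mitochondrial genes, was chosen after its values were seen and read 402 on siCtrl and 119 on siPML, with 947 on vector and 628 on WDR4 (log2 difference -1.75). The 150 kept ZNF genes had 75 above and 75 below 0.

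In lists of chromatin, RNA and protein turnover genes few members differed strongly. PHF19, a Polycomb protein that reads methylated histone H3, read 3214 on siCtrl and 528 on siPML, with 1429.8 on vector and 1173 on WDR4 (log2 difference -2.60), with -1.56 on its second probe, and CBX2, another, read 401 on siCtrl and 1211 on siPML, with 543 on vector and 556 on WDR4 (log2 difference 1.59) but 0.08 on the second. HMGB3, a chromatin protein that bends DNA, read 5099.8 on siCtrl and 1212 on siPML, with 1581 on vector and 2506 on WDR4 (log2 difference -2.07). MALAT1, an abundant nuclear RNA, read 1879 on siCtrl and 5442 on siPML, with 9500.1 on vector and 8039 on WDR4, with probes at 1.25 and 1.53. UBE2N, which builds K63-linked ubiquitin chains, read 3125 on siCtrl and 815 on siPML, with 2329 on vector and 2360.3 on WDR4 (log2 difference -1.94) and its paralogue UBE2NL read 9619 on siCtrl and 4628 on siPML, with 7363 on vector and 8718 on WDR4 (log2 difference -1.06). These near-identical sequences may share signal. CAND1, which exchanges the receptors of cullin ligases, read 1721 on siCtrl and 566 on siPML, with 1542 on vector and 1374 on WDR4 (log2 difference -1.60). KLHL42, a cullin adaptor, read 2806 on siCtrl and 809 on siPML, with 1927 on vector and 2069 on WDR4, with probes at -1.93 and -1.79. The proteasome subunit PSMD10 read 6221 on siCtrl and 2722 on siPML, with 5201 on vector and 5724 on WDR4 (log2 difference -1.19), in a list of 40 with a median of 0.02. BECN1, which starts autophagosome formation, read 3145 on siCtrl and 1173 on siPML, with 3159 on vector and 2835 on WDR4 (log2 difference -1.42). DDOST, part of the enzyme that attaches N-glycans, read 30146 on siCtrl and 14636 on siPML, with 23066 on vector and 19456 on WDR4, and its 3 probes lay between -1.48 and -1.04. In the secretory route AP1S3, an adaptor subunit of clathrin, read 6305 on siCtrl and 1739.5 on siPML, with 5313 on vector and 4698 on WDR4, with probes at -1.86 and -1.65, and the chaperone PDIA5 was higher at 2753 on siCtrl and 7069 on siPML, with 4096 on vector and 3808 on WDR4 (log2 difference 1.36).

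The labelled line was checked against marker genes. Of 7 markers of lung adenocarcinoma epithelium on the arrays 5 were kept. KRT8 and CLDN4 were under the filter, at 42.4 and 66.0 on siCtrl and 71.3 and 52.1 on siPML. The summed level over all 7 was 24719.9 on siCtrl and 24108 on siPML. Single members were less even, with CDH1 at 5311 on siCtrl and 1374 on siPML and KRT19 at 7487 and 10329. Of 10 alveolar markers 1 was kept, the lipid transporter ABCA3, and the surfactant genes read at most 118 on either siRNA array. Endothelial markers had none of 6 kept, fibroblast markers had 1 of 6 and T cell markers 1 of 6, and the summed levels of the 3 lists were 263, 577 and 816 on siCtrl against 339.6, 766 and 963 on siPML. Of 9 macrophage markers 3 were kept, with a sum of 10644 on siCtrl and 4161 on siPML. That difference came mostly from CD14, which epithelial cells also express and which read 9183 on siCtrl and 2852 on siPML, with 7453 on vector and 5205 on WDR4 (log2 difference -1.69). Also kept were CD68, at 623 on siCtrl and 403 on siPML, with 3248 on vector and 3828 on WDR4, and AIF1, at 589 on siCtrl and 551 on siPML. CD163 and CSF1R stayed below 50 on both siRNA arrays. Markers of a kidney line had 2 of 5 kept, with sums of 10482.5 on siCtrl and 10102 on siPML. Most of that sum was SIX2, at 9782 on siCtrl and 9280 on siPML, with 9717 on vector and 10287 on WDR4. That level was near that of KRT7, so this kidney marker was not low. The other kept marker, LHX1, read 597 on siCtrl and 575 on siPML. The part of other cells in the results was not tested. Among housekeeping genes HPRT1 read 8720.5 on siCtrl and 2144 on siPML, with 5664 on vector and 6867 on WDR4 (log2 difference -2.02) and PPIA read 1566 on siCtrl and 742 on siPML, with 571 on vector and 722 on WDR4 (log2 difference -1.08), so these 2 did not serve as a constant reference between the siRNA arrays. YWHAZ and TFRC differed by 0.10 and 0.28, and the housekeeping list had a median of 0.12.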

How the data were processed

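Total RNA of A549 cells, purified on a column kit and labelled with Cy5 per the labels' protocols, was hybridised to 4 one-colour arrays, 1 per group. The authors deposited 1 linear intensity per probe and array, which can be negative. No scanner, background subtraction or scaling step is named in the sources used here. The upper quartile of the 31741 intensities was 620 on both siRNA arrays, 715 on vector and 709 on WDR4, and 41 to 61 probes per array lay at the scanner limit. The deposited values were used without further scaling. Intensities between 10 and 600 could be written as sums of 2 scaled whole-number readings of a probe on each array, and the spread of these readings gave the technical standard errors.

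Probes were named from the platform annotation, which can be old, and symbols were updated through a RefSeq gene table (GRCh38.p14): of the probes with 1 symbol 22404 were current, 2177 were updated and 77 kept the older symbol. Probes with several symbols (1002) or none (6081) named no gene. Values were then log2(intensity + 1), with negative intensities as 0. A gene was its brightest probe on the siRNA pair, kept when its mean log2 over that pair reached the median of all named genes. Single arrays per group allowed no test.

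Named in the text were PML, the 12 largest differences each way, up to 10 genes each way with all of at least 2 probes beyond 2-fold, the 4 largest differences of each list, all kept members of glycolysis, MCM and sterol synthesis, up to 5 genes each way with siPML outside the other arrays, and the fixed marker genes. Genes outside this rule are marked as such where they appear. The comparison, the lists and the motifs were chosen with earlier results of these data known. The scripts were tested on simulated arrays. Alternatives were quantile normalization, centring, removal of a running median trend, other filters, the mean over probes, 16 in place of 1 added, other controls, a fold of 1.5 and looser rules for a lean. The analysis used Python 3.11.15, numpy 2.4.6, pandas 2.3.3 and matplotlib 3.10.9.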

Additional observations from a re-analysis of the deposited data

Results flagged for a closer look

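Probes without a single gene symbol stayed outside the comparison by gene and were looked at again for that reason. Above the filter there were 1761 of them. Past a 2-fold difference, 36 of the 1761 had the higher value on siPML and 67 the lower value. Of the 9128 kept genes, 2.34% passed that mark on the higher side and 4.08% on the lower side. The shares among the probes without a single symbol were no larger, so these probes did not stand out by such counts. Single arrays per group cannot show an outlying sample.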

How the results depend on the processing

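No paired analysis was possible because each group had 1 array. The counts of genes at least 2-fold higher and lower, 214 and 372, were 736 and 570 with no filter on dim genes, 71 and 171 for genes above the upper quartile, 921 and 1137 at 1.5-fold, and 382 and 995 with vector as the control. Quantile normalization gave 207 and 315, removal of the running median trend 198 and 382, the choice of probes on all 4 arrays 210 and 390, the mean over probes 209 and 327, and omission of genes at the scanner limit 214 and 372, while 193 and 349 were found with 16 added before log2. The 6 lists leaning higher became 16 with vector as the control, 16 with a list median 0.2 away and 11 with 66.7% of the members on one side, and the 10 leaning lower became 17 with vector. PML differed by -2.92 with vector as the control and by -1.84 with the mean of siCtrl and vector.

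Among the 16 leaning lists, the medians that changed sign were those of chemokines, 0.024 with no filter, and, with vector as the control, of MCM at 0.47, DNA polymerases at 0.21, mitotic kinases and spindle at 0.35, core and linker histones at -0.45, the TCA cycle at 0.076 and ATP synthase at 0.21. With the mean of siCtrl and vector, polymerases were at 0.015, mitotic kinases and spindle at 0.048 and ATP synthase at 0.025. Named genes beyond 2-fold changed sign with vector as the control, which the deposited values show directly: BBC3 -0.53, BIK -1.34, COX5A -0.26, DUT 0.61, EREG -1.45, FGG 1.83, H2BC18 -0.52, ID2 -0.012, ITGA5 -0.48, KIF20A 0.41, KLK10 -1.44, MALAT1 -0.80, NFKB2 -0.61, PPIA 0.38, RRM2 0.86, SAA2 -0.83, SPC25 0.044, TLR3 -1.35, TWIST1 -0.025. With the mean of siCtrl and vector, the values were BIK -0.11, EREG -0.15, FGG 0.24, TLR3 -0.021. Under the alternatives that kept siCtrl as the control, no named gene beyond 2-fold changed sign. The cause was not tested.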
